A study of Homo sapiens with 24 samples.

Results

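Estradiol was added to the histone deacetylase inhibitor CG-1521 in SUM149PT cells, and gene expression with both agents was compared with that under CG-1521 alone. The comparison rests on 6 of the 24 arrays of the study, chosen by their sample titles. The first group, E2+CG, received 10 nM 17β-estradiol and 7.5 µM CG-1521. The second, CG, received 7.5 µM CG-1521. Each group has 3 arrays, and the design text describes 3 independent experiments. Further SUM149PT groups of 3 arrays received 10 nM estradiol (E2) or vehicle, which was ethanol and DMSO. SUM190PT, the other line of the study, had the same 4 groups of 3 arrays in another medium. There estradiol was also at 10 nM but CG-1521 at 5 µM, and these arrays are used below for comparison. All treatments lasted 48 h. SUM149PT is a human inflammatory breast cancer line that the labels give as estrogen receptor negative and as carrying mutant p53. It was grown in medium with fetal bovine serum, insulin and hydrocortisone, and the labels do not say that the serum was stripped of steroids. CG-1521 was present in both groups compared, so by their labels the 6 arrays differ in estradiol alone.

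Estradiol acts through ligand-activated transcription factors. The nuclear receptors, encoded by ESR1 and ESR2, bind estrogen response elements in DNA and recruit coactivators with acetyltransferase activity, while GPER1 encodes a membrane receptor that signals through kinases and immediate early genes. Histone deacetylases oppose the acetyltransferases, and their inhibitors can re-express silenced genes. The comparison asks what estradiol adds once CG-1521 is present.

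Estrogen response elements were looked for first, since they are the sequence through which a direct effect of the nuclear receptors would run. The perfect palindrome, GGTCA and TGACC with any 3 bases between them, which matches on both strands at once, was searched in promoter windows of RefSeq (GRCh38.p14) from 250 bases before to 50 bases after a gene's start. It was found in 3 of 14239 windows of measured genes (0.0211%). The 3 sites are shown with 10 flanking bases on either side and the element in capitals, 5′ to 3′ on the strand of the gene.
EVX2, chr2:176083930-176083962, minus strand: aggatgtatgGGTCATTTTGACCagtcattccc
USHBP1, chr19:17264720-17264752, minus strand: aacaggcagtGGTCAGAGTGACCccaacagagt
ZNF669, chr1:247104508-247104540, minus strand: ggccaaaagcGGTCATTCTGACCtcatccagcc
None of these 3 genes passed the test described below. USHBP1 had log2 levels of 5.50, 5.60 and 5.74 in the E2+CG arrays and 5.46, 5.42 and 5.48 in the CG arrays, so that the groups did not overlap, with a difference of 0.16 (SE 0.095, limma adjusted p = 0.85). EVX2, a homeobox gene, differed by 0.09 and ZNF669, a zinc-finger gene, by −0.05. Of 35 measured estrogen response genes 25 had a window, and 0 of those held the palindrome. The shorter GGTCA, an arm of the palindrome, lay on either strand in 5012 windows (35.2%), and every window with the palindrome is among these. Genes with GGTCA in the window had a median log2 difference of −0.001, and those without had 0.002. A match is a run of letters and no evidence of binding, and response elements can lie far outside such windows.

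Values are log2 RMA expression, in which a difference of 1 is a 2-fold change. No gene passed the test. Of 18417 genes, 0 differed between E2+CG and CG at a Benjamini-Hochberg adjusted p under 0.05 in limma (0%), and the smallest adjusted p was 0.14. At an unadjusted p under 0.05 there were 1156 genes (6.28%), with 697 higher (3.78%) and 459 lower (2.49%) in E2+CG. The 3 arrays of a group lay wholly on one side of the other 3 in 2080 genes (11.3%), of which 1160 were higher (6.3%) and 920 lower (5%). No difference reached 2-fold and 10 genes reached 1.5-fold. The median absolute log2 difference was 0.073, against a median standard error of 0.096.

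The 6 arrays also set a bound on the differences in signal that could have been missed. The 95% confidence interval of the difference lay within 1.5-fold either way for 18077 genes (98.2%) and within 2-fold for 18410, which leaves 7 genes for which a 2-fold difference lies inside the interval. These intervals come from 3 arrays per group with the spread shared over the 12 SUM149PT arrays and cover each gene by itself. They bound the array signal of genes taken without an intensity filter, of which 50% had a mean under 6.13. For scale, CG against vehicle, which shares the CG arrays and standard error with this comparison, called 6319 of the same genes (34.3%) and 876 of all genes differed by at least 2-fold there.

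**Figure D1:**
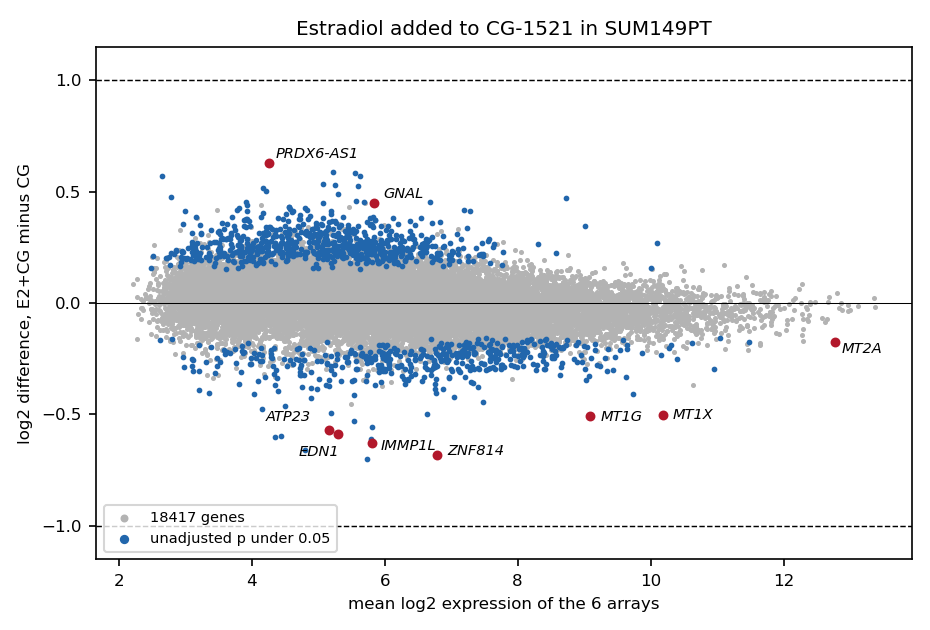
Log2 difference (E2+CG minus CG, vertical axis) of 18417 genes against the mean log2 expression of the 6 arrays (horizontal axis). Blue points have an unadjusted p under 0.05, red points are genes named in the text, and dashed lines mark 2-fold; no point lies beyond them, and blue points above 0 gather at low expression and those below 0 at higher expression.

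The direction of the small differences followed the level of the gene. Among the 50% of genes with the lowest mean (under 6.13), 578 were higher and 162 lower at an unadjusted p under 0.05. Among the brighter 50%, 119 were higher and 297 lower. Median differences were 0.041 and −0.023. The E2+CG arrays had lower quartiles of 4.61, 4.66 and 4.63, against 4.57, 4.61 and 4.58 in CG arrays. When the 12 arrays were quantile normalized again, the counts became 332 higher and 308 lower among dim genes and 189 and 234 among bright ones, with medians of 0.004 and 0.001. The share of the unadjusted calls that was higher in E2+CG was 60.3% in the deposited values, 49% after quantile normalization and 42.1% after each array was centred on its median. Counts of higher and lower genes below are therefore to be read beside the level of their genes.

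Arrays of the 2 groups were nearly as alike across groups as within them. Pearson correlations over all genes were 0.9946 to 0.9948 within E2+CG and 0.9954 to 0.9958 within CG, and 0.9941 to 0.9956 between the groups. Basal and luminal markers were set beside those of SUM190PT, the other line. Of 9 measured basal breast markers 6 were higher in all 6 arrays than in all SUM190PT arrays given CG-1521, at 5 µM, with or without estradiol, including the keratins KRT5 and KRT14, EGFR and the laminin chain LAMB3. Of 17 luminal markers 12 were lower than in those arrays, including GATA3, FOXA1 and ERBB2. The share of all genes that separate the lines in this way was not counted. The fibroblast markers FAP, ACTA2 and COL6A3, the leukocyte marker CD68 and the endothelial marker ROBO4 were also higher than in those arrays, and PECAM1 was lower. Neither the basal nor the luminal list differed between E2+CG and CG in any member past the test. Of markers of other cells a culture could hold, 0 of 12 fibroblast, 0 of 10 leukocyte and 0 of 10 endothelial genes passed, with median log2 differences of 0.06, 0.02 and 0.01, the last of which was negative under both other scalings. PTPRC, which marks all leukocytes, was at 3.03, 2.97 and 2.98 in E2+CG arrays and 3.12, 2.97 and 2.97 in CG arrays, near the bottom of the scale. Since an array carries the RNA of many cells, a change in the share of cells and a change in RNA per cell cannot be told apart.

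The receptors were the first members asked about. ESR1, which encodes estrogen receptor alpha, was at log2 4.72, 4.72 and 4.75 in E2+CG arrays and at 4.83, 4.79 and 4.86 in CG arrays. The groups did not overlap, but the difference of −0.10 (SE 0.096) was about the size of its error and did not pass (adjusted p = 0.908). ESR2, which encodes estrogen receptor beta, was at 3.70, 3.73 and 3.60 in E2+CG and 3.78, 3.70 and 3.64 in CG. That is a difference of −0.03 (SE 0.082). GPER1 was at 5.59, 5.92 and 5.69 in E2+CG and 5.52, 5.77 and 5.62 in CG, higher by 0.10 (SE 0.110) with overlapping arrays.

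Levels in the E2 and vehicle arrays were much the same. ESR1 was at 4.79, 4.73 and 5.06 in E2 arrays and 4.91, 4.61 and 4.75 in vehicle arrays, which bracket both CG-1521 groups. CG against vehicle differed by 0.07 for ESR1, −0.06 for ESR2 and 0.06 for GPER1, with adjusted p of 0.633, 0.638 and 0.738. All 3 receptor genes lay below the median level of an array (6.10 to 6.15 in the 6 arrays). Signal of different probe sets is not on a common scale, so their levels are not ranked here.

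Every list median given below is small, and each of the 35 moved by over 1.5 times, or changed sign, when some array of the 6 was left out; 18 changed sign.

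Of 14 measured nuclear receptor genes 0 passed in either direction and 0 reached an unadjusted p under 0.05. Their median log2 difference was −0.04, beside 0.005 over all genes, and their range was −0.14 to 0.21. The upper end was ESRRB, an orphan estrogen-related receptor, at 4.78, 4.58 and 4.77 in E2+CG and 4.70, 4.42 and 4.37 in CG (adjusted p = 0.821). RXRA, the common partner of many nuclear receptors, differed by 0.16 (SE 0.112). ESRRA, the related receptor that controls mitochondrial genes, differed by 0.01.

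The coactivators, corepressors and pioneer factors that receptors work with gave 0 of 17 past the test and a median of −0.02, which was 0.001 after quantile normalization. PHB2, a mitochondrial prohibitin also known as a repressor of estrogen receptor activity, came nearest. It was at 11.01, 10.88 and 10.99 in E2+CG and 11.09, 11.20 and 11.08 in CG, a difference of −0.16 (SE 0.073, adjusted p = 0.793). MED1, the Mediator subunit that contacts the receptor, differed by −0.12 (SE 0.089).

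Genes that estradiol raises in receptor-positive breast cancer cells are the direct readout of receptor activity. Of 35 measured members 0 passed, and 2 were higher and 0 lower at an unadjusted p under 0.05, beside 3.78% and 2.49% over all genes. Their median log2 difference was 0.002 in the deposited values, −0.01 after quantile normalization and −0.02 after median centring, and 19 lay above 0 and 16 below. Every member's 95% interval stayed within 1.5-fold, as did that of 98.2% of all genes.

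The 2 members at an unadjusted p under 0.05 were TFF1 and KRT13. TFF1, a secreted trefoil peptide and a classic estrogen target, was at 5.87, 5.94 and 5.56 in E2+CG and 5.40, 5.57 and 5.65 in CG. The third E2+CG array lay among the CG arrays, so the groups overlapped, and the difference was 0.25 (SE 0.113, 95% interval 0.01 to 0.49, adjusted p = 0.793). KRT13, a keratin of stratified epithelium, was at 5.76, 5.80 and 5.83 in E2+CG and 5.52, 5.54 and 5.58 in CG. Its groups did not overlap, the difference was 0.25 (SE 0.086, adjusted p = 0.701), and both genes kept their direction under every alternative tried.

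Set beside the other comparisons, neither gene passed there. For TFF1 the E2 arrays were at 5.59, 5.66 and 5.41 and the vehicle arrays at 5.26, 5.50 and 5.53, a difference of 0.13 (SE 0.113). KRT13 differed by −0.02 (SE 0.086) between E2 and vehicle. In SUM190PT, where CG-1521 was given at 5 µM in another medium, TFF1 was at 5.51, 5.59 and 5.80 in E2+CG and 5.28, 5.39 and 5.16 in CG, which did not overlap and differed by 0.36 (SE 0.180, adjusted p of 1).

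The best known targets gave smaller values. PGR, which encodes the progesterone receptor, was at 3.73, 3.57 and 3.69 in E2+CG and 3.66, 3.68 and 3.79 in CG, a difference of −0.05 (SE 0.083). GREB1, a receptor cofactor and early target, was at 4.08, 4.02 and 4.18 in E2+CG and 4.04, 4.06 and 4.10 in CG, a difference of 0.02 (SE 0.082) that became −0.01 after quantile normalization. PGR and GREB1 lay below the lower quartile of each of the 6 arrays (4.57 to 4.66). At so low a signal a change in their transcripts may not show. CCND1, which encodes cyclin D1, differed by −0.05, the chemokine gene CXCL12 by 0.01 and IGFBP4, an insulin-like growth factor binding protein, by 0.06. XBP1, a target that is also a transcription factor of the unfolded protein response, had non-overlapping arrays at 9.40, 9.39 and 9.32 in E2+CG and 9.50, 9.58 and 9.53 in CG, and differed by −0.16 (adjusted p = 0.805).

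**Figure D2:**
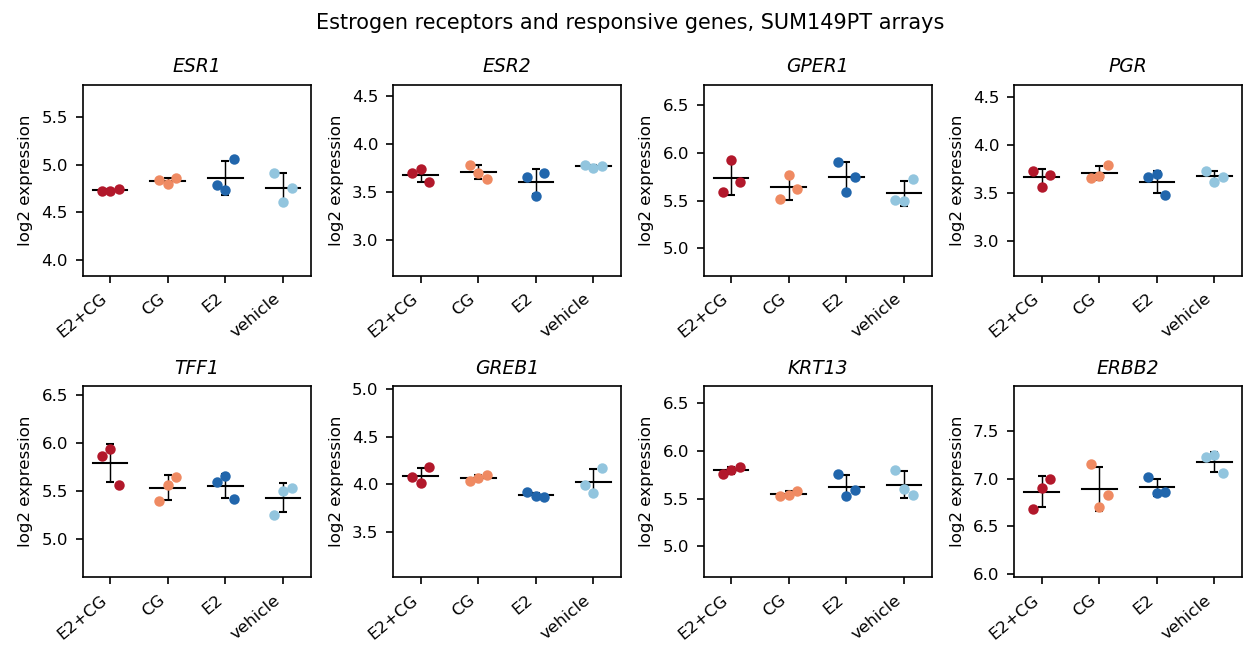
Log2 expression (vertical axis, at least 2 log2 units per panel) of receptor genes, estrogen targets and ERBB2 in the 4 SUM149PT groups, E2+CG, CG, E2 and vehicle. Points are arrays, long bars the mean and whiskers the SD of 3 arrays. The means of E2+CG and CG lie within 0.3 log2 units of each other in every panel, and the means of TFF1 and KRT13 are highest in E2+CG.

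Immediate early genes, which answer within minutes to kinase signalling such as that of GPER1 and would be read here only at 48 h, gave 0 of 18 past the test. Of these, 14 lay below 0, as did 48.2% of all genes and 60.3% of the brighter genes. The median log2 difference was −0.10, and −0.06 without CG replicate 1 or without E2+CG replicate 1. ATF3 was the 1 member lower at an unadjusted p under 0.05, beside 2.49% lower over all genes. ATF3, a stress-induced transcription factor, was at 6.88, 6.70 and 6.75 in E2+CG and 6.99, 6.86 and 7.10 in CG, overlapping by a narrow margin, with a difference of −0.21 (SE 0.095, adjusted p = 0.793). KLF6, a zinc-finger factor, was at 9.08, 9.23 and 8.96 in E2+CG and 9.26, 9.36 and 9.30 in CG (−0.22, SE 0.108). FOS, the AP-1 subunit, had the widest spread, from 8.40 to 8.56 in E2+CG and 8.20 to 9.35 in CG, and its 95% interval of −0.81 to 0.39 does not exclude a change of 1.5-fold. EGR1 differed by −0.18 (SE 0.204). Without CG-1521, between E2 and vehicle, the median of this list was −0.145.

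Enzymes that make or clear steroids gave 0 of 22 past the test, with a median log2 difference of −0.02. CYP1A1, a cytochrome that hydroxylates estradiol and a target of the aryl hydrocarbon receptor, was at 4.92, 4.57 and 4.47 in E2+CG and 4.52, 4.10 and 4.21 in CG. The groups overlapped and the difference was 0.38 (SE 0.160, 95% interval 0.04 to 0.72, adjusted p = 0.764), in a gene of low signal. CYP1B1, the estradiol 4-hydroxylase, stood at 10.85 to 10.92 in E2+CG and 10.76 to 11.03 in CG, a difference of −0.02. The aromatase gene CYP19A1 differed by 0.12 (SE 0.131), HSD17B1, which reduces estrone to estradiol, by 0.04, and the steroid sulfatase gene STS by −0.03. The medium held hydrocortisone in both groups, and 0 of 13 glucocorticoid response genes passed, with a median of 0.002 that was −0.02 after median centring.

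Closest to the threshold stood 5 genes with an adjusted p of 0.14, and these together with EDN1 were picked out after their values were seen. IMMP1L, a peptidase subunit of the mitochondrial inner membrane, was at 5.42, 5.45 and 5.62 in E2+CG and 6.16, 6.18 and 6.03 in CG. The arrays did not overlap and the difference was −0.63 (SE 0.105, 95% interval −0.85 to −0.40). ATP23, a mitochondrial metallopeptidase, was at 4.84, 4.98 and 4.80 in E2+CG and 5.40, 5.40 and 5.53 in CG (−0.57, SE 0.099).

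MRPS18C, a protein of the small mitochondrial ribosomal subunit, was at 5.33, 5.30 and 5.19 in E2+CG and 5.61, 5.83 and 5.97 in CG (−0.53, SE 0.092). Its E2 arrays, 5.35, 5.41 and 5.49, and vehicle arrays, 5.35, 5.38 and 5.29, were near the E2+CG level, so the CG arrays were the high ones. ZNF674, a zinc-finger gene, was at 3.97, 3.90 and 3.87 in E2+CG and 4.28, 4.51 and 4.38 in CG (−0.48, SE 0.079). PRDX6-AS1, an antisense transcript of the peroxiredoxin gene PRDX6, was at 4.51, 4.67 and 4.53 in E2+CG and 4.13, 3.81 and 3.89 in CG, the largest difference upward of all genes at 0.63 (SE 0.106). ATP23, MRPS18C, ZNF674 and PRDX6-AS1 lay below the median level in each of the 6 arrays. The smallest adjusted p that any of the 14 alternatives gave for the comparison was 0.0781, for IMMP1L and ZNF674 after quantile normalization.

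EDN1, which encodes the vasoconstrictor and mitogen endothelin-1, was lower with estradiol on both backgrounds. It was at 4.76, 5.19 and 5.06 in E2+CG and 5.56, 5.58 and 5.64 in CG, a difference of −0.59 (SE 0.110, adjusted p = 0.248). The E2 arrays were at 5.28, 5.58 and 5.55 and the vehicle arrays at 5.93, 6.12 and 5.93, a difference of −0.53 (SE 0.110). All 3 estradiol arrays lay below all 3 arrays without it in both pairs, and the 2 differences share no array. EDN1 lay below the median level in each of the 6 E2+CG and CG arrays.

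The difference between them, the interaction, was −0.06 with an adjusted p of 0.985. Averaged over both backgrounds in a contrast added after the data were seen, EDN1 was lower by a log2 difference of −0.56 (SE 0.078), with an adjusted p of 0.0597 that was the smallest of the 18417 genes. No gene passed in that contrast (0%), and 975 (5.29%) had an unadjusted p under 0.05. Without E2+CG replicate 2 or without E2 replicate 2 the adjusted p of EDN1 was 0.0308 or 0.0465, and without CG replicate 3 it was 0.327. With the replicate number as a block in the limma fit it was 0.0159. Single arrays and the block thus decide on which side of the threshold it falls. In SUM190PT the EDN1 arrays were at 7.32, 8.15 and 7.54 in E2+CG and 7.64, 8.20 and 7.53 in CG, which overlapped (−0.12, SE 0.248).

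The RefSeq promoter window of EDN1 is printed because no other gene came as close to the threshold in the averaged contrast. It holds no GGTCA on either strand and so no capitals.
EDN1, chr6:12287769-12288068, plus strand: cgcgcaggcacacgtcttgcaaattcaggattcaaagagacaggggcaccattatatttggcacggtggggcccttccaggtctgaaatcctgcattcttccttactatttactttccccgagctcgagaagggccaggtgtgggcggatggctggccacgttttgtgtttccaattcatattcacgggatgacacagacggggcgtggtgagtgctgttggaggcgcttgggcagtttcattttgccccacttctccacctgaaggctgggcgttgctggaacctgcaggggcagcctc

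Metallothioneins are small cysteine-rich proteins that bind zinc and copper, and their genes respond to metals, glucocorticoids and oxidative stress. Of 8 measured genes 0 passed, while 4 were lower and 0 higher at an unadjusted p under 0.05, beside 2.49% lower over all genes. The list was the lowest of the 35, with a median log2 difference of −0.18 (−0.11 after quantile normalization), beside 0.005 over all genes. The median of the 8 genes in each array, relative to each gene's mean over the 6, was −0.06, 0.02 and −0.21 in E2+CG and −0.01, 0.24 and 0.01 in CG. E2+CG replicate 3 was lowest and CG replicate 2 highest, and the groups overlapped. The list median was −0.10 without CG replicate 2 and −0.115 without E2+CG replicate 3.

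MT1G was at 9.01, 8.78 and 8.71 in E2+CG and 9.26, 9.57 and 9.20 in CG, which did not overlap (−0.51, SE 0.108, adjusted p = 0.429). MT1X was at 10.08, 10.01 and 9.70 in E2+CG and 10.40, 10.70 and 10.20 in CG, again without overlap (−0.50, SE 0.138, adjusted p = 0.644).

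Among the brighter members, MT2A was at 12.72, 12.71 and 12.61 in E2+CG and 12.83, 12.97 and 12.77 in CG (−0.18, SE 0.076). MT1E differed by −0.33 (SE 0.121) with overlapping arrays and MT1F by −0.18. The dimmer members did not share this direction: MT1H differed by −0.004, MT1M by 0.15 and MT3, the brain form, by 0.10. The genes are near-identical copies, so probe sets may share signal and the members are not independent.

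Without CG-1521 the metallothioneins gave other values. Between E2 and vehicle MT1G differed by −0.11, MT1X by −0.004 and MT1E by 0.39 (SE 0.121). The interaction was −0.72 for MT1E and −0.50 for MT1X, at adjusted p of 0.762 and 0.828. In SUM190PT the list median of E2+CG against CG was 0.16, with MT1G at 11.17, 11.16 and 11.26 in E2+CG and 11.09, 10.85 and 11.003 in CG, so the higher group was E2+CG there.

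The metal response element, TGCACNC or TGCGCNC on either strand, lay in 4982 of the 14239 promoter windows (35%). Windows were given for 3 metallothioneins. That of MT1X held 4 elements, that of MT2A 8 and that of MT1H 8. A link between these counts and the differences was not tested. The windows of MT1X and MT2A are shown with the elements in capitals.
MT1X, chr16:56682220-56682519, plus strand: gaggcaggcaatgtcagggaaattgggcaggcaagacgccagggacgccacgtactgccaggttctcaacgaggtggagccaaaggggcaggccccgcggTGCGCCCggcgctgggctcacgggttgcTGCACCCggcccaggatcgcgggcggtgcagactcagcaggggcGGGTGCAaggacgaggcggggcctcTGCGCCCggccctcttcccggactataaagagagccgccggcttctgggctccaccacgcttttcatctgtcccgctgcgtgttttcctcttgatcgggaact
MT2A, chr16:56608334-56608633, plus strand: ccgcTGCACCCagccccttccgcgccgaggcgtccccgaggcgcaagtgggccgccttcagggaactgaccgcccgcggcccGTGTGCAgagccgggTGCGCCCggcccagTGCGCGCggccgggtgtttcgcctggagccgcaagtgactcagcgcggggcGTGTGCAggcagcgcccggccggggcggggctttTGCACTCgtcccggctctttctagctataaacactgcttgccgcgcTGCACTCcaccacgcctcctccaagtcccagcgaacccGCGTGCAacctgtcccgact

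**Figure D3:**
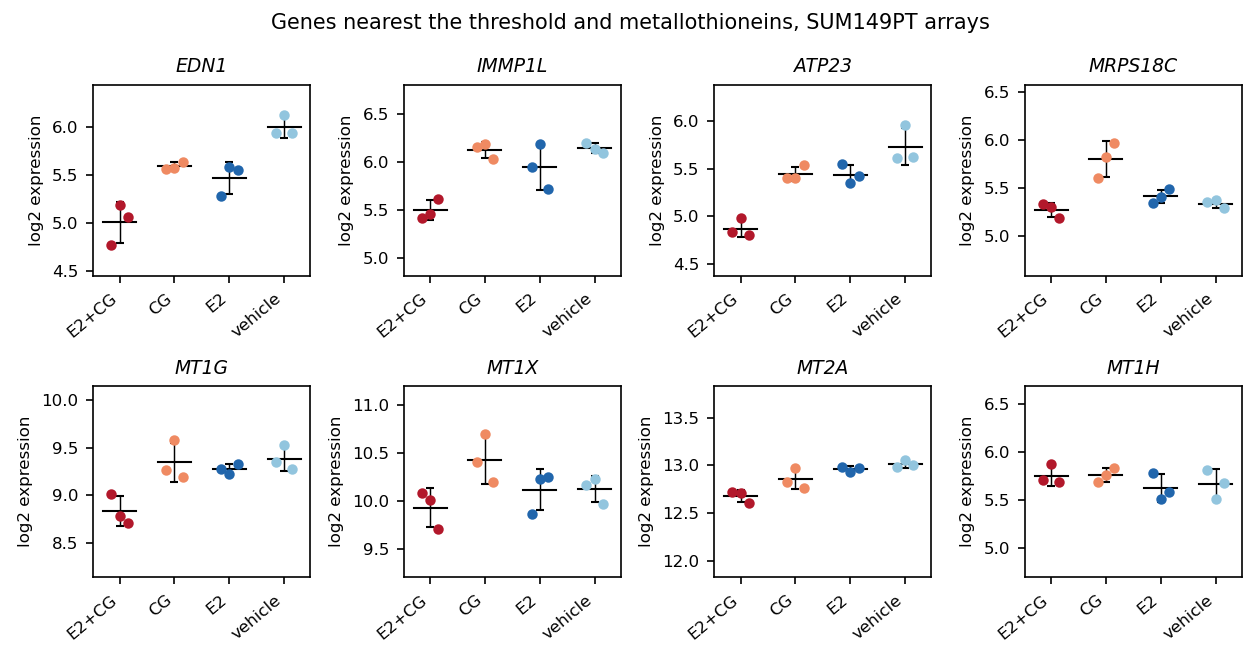
Log2 expression (vertical axis, at least 2 log2 units per panel) in the 4 SUM149PT groups for EDN1, 3 of the genes nearest the threshold and 4 metallothioneins. Points are arrays, long bars means and whiskers the SD of 3 arrays; EDN1 is lower with estradiol on both backgrounds, MRPS18C stands high in CG alone, and MT1H does not differ as MT1G and MT1X do.

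By the rule for named genes, places not taken by genes past the threshold were filled with the smallest p among non-overlapping genes of at least log2 6 in either group, so none of the following passed. Among those higher in E2+CG, GNAL, a G protein alpha subunit of olfactory and striatal neurons, was at 6.19, 5.91 and 6.07 in E2+CG and 5.79, 5.32 and 5.70 in CG. It differed by 0.45 (SE 0.118, adjusted p = 0.644), and CG against vehicle, which shares the CG arrays, was −0.43. KRTAP10-4, a hair keratin-associated protein, was at 7.56, 7.37 and 7.52 in E2+CG and 6.76, 7.20 and 7.25 in CG (0.42, SE 0.122). ZIC5, a zinc-finger factor of neural development, differed by 0.38, and THEMIS2, a signalling adaptor of B cells and macrophages, by 0.37.

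Of the others with higher values, NKX6-1, a homeobox factor of pancreatic beta cells, and RXFP3, the relaxin-3 receptor, both differed by 0.36. TMEM105 and TMEM92, of the transmembrane protein nomenclature, both differed by 0.32, NANOS1, an RNA-binding translational repressor, by 0.28, DOK7, an adaptor of the neuromuscular junction, by 0.27 and TTC39C by 0.27. Levels of these 11 genes lay between 5.32 and 7.65 in the 6 arrays.

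The largest fall of all genes was −0.699, in the small nucleolar RNA SNORA62, whose symbol the rule skips. Among the genes that the rule took as lower in E2+CG, ZNF814, a zinc-finger gene, had the largest difference. It was at 6.80, 6.03 and 6.52 in E2+CG and 7.25, 7.07 and 7.07 in CG (−0.68, SE 0.148, adjusted p = 0.43). NDUFB6, an accessory subunit of respiratory complex I, was at 5.83, 5.60 and 5.17 in E2+CG and 6.27, 5.99 and 6.01 in CG (−0.56, SE 0.137). CREB3, a transcription factor held in the endoplasmic reticulum membrane, was at 7.18, 7.18 and 7.09 in E2+CG and 7.55, 7.47 and 7.51 in CG (−0.36, SE 0.089). The E2 and vehicle arrays of CREB3 ran from 6.27 to 6.59, so both CG-1521 groups stood above them.

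The remaining genes of this kind differed by less. LSM3, a subunit of the ring that binds U6 RNA, differed by −0.38, ZNF581 and ZNF426, zinc-finger genes, by −0.34 each and SYAP1 by −0.30. APOBEC3B, a DNA cytidine deaminase, was at 6.86, 6.87 and 6.84 in E2+CG and 7.20, 7.08 and 7.18 in CG (−0.29, SE 0.078). MRPL22, a protein of the large mitochondrial ribosomal subunit, and RALA, a Ras-like GTPase, both differed by −0.29. With IMMP1L and MT1G these make 12 genes. For each of the 24 genes that the rule took in both directions the 95% interval stayed within 2-fold, as for 18410 of all 18417 genes. Of the 24 genes, 12 had the same sign between E2 and vehicle and 17 in SUM190PT.

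Genes that CG-1521 moves strongly were set side by side, with the caution that both differences use the CG arrays. Spindle and kinetochore genes had a median log2 difference of −0.04 for E2+CG against CG and −1.83 for CG against vehicle (28 genes, 0 past the test in the first). It was −0.07 and −1.78 for 20 G2/M genes, and −0.03 and −1.30 for 32 DNA replication genes. No member of these lists passed, and 3 spindle genes were lower at an unadjusted p under 0.05, beside 2.49% over all genes. Without E2+CG replicate 1 the medians for E2+CG against CG were −0.14 for spindle, −0.11 for G2/M and −0.12 for DNA replication genes, and without E2+CG replicate 2 they were −0.01, −0.02 and −0.008. The DNA replication median was −0.09 without CG replicate 3 and 0.008 without CG replicate 1.

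Single members of the cell-cycle lists were close in both CG-1521 groups. KIF4A, a chromosome-bound kinesin, was at 7.59, 7.39 and 7.55 in E2+CG and 7.86, 7.51 and 7.92 in CG (−0.25, SE 0.103), while E2 and vehicle arrays ran from 9.40 to 9.64. KIF2C, the centromere-bound depolymerase, differed by −0.21, UBE2C, the ubiquitin carrier of the anaphase-promoting complex, by −0.15 and the survivin gene BIRC5 by −0.08. CDKN1A, which encodes the cell-cycle inhibitor p21, was at 8.46, 8.51 and 8.49 in E2+CG and 8.63, 8.32 and 8.43 in CG, a difference of 0.03 (SE 0.108). In E2 arrays it was at 7.10, 6.91 and 6.97 and in vehicle arrays at 6.76, 7.16 and 7.12. The growth-arrest gene GADD45G had non-overlapping arrays at 5.86, 5.91 and 5.83 in E2+CG and 6.02, 6.18 and 6.06 in CG (−0.22, adjusted p = 0.745).

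Genes raised by CG-1521 likewise stood at similar levels with and without estradiol. The secretory isomerase gene AGR2 was at 8.11, 8.04 and 8.38 in E2+CG and 8.10, 8.28 and 8.54 in CG, while E2 and vehicle arrays lay between 4.31 and 4.70. The difference was −0.13 (SE 0.127) with a 95% interval of −0.40 to 0.14. The hormone gene SPX was at 7.42, 7.73 and 7.98 in E2+CG and 7.51, 7.77 and 8.05 in CG (−0.07, SE 0.135). HMGCS1, an early enzyme of sterol synthesis, averaged 9.49 ± 0.103 in E2+CG and 9.47 ± 0.028 in CG (SD, n = 3 each), and 0 of 17 cholesterol genes passed, with a median of −0.02 that was 0.03 after quantile normalization.

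Unfolded protein response genes, which handle misfolded proteins of the endoplasmic reticulum, gave 0 of 21 past the test, and 2 lower at an unadjusted p under 0.05, beside 2.49% over all genes. Their median log2 difference was −0.07, and −0.01 without CG replicate 3. SDF2L1, a chaperone cofactor, was at 7.94, 7.91 and 7.66 in E2+CG and 8.14, 7.95 and 8.11 in CG (−0.23, SE 0.093), and EDEM1, which routes misfolded glycoproteins to degradation, differed by −0.18. The stress factor gene DDIT3 was at 8.51, 8.44 and 8.60 in E2+CG and 8.57, 8.49 and 8.90 in CG (−0.13). Aldo-keto reductase and NRF2 genes had 0 of 14 past the test and a median of −0.07, which was −0.007 without CG replicate 3.

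Inflammatory and other lists gave single members only. Of 20 NF-kB and cytokine genes 1 was higher and 1 lower at an unadjusted p under 0.05, beside 3.78% and 2.49% over all genes. They were the chemokine genes CCL5, with 0.19 (SE 0.091), and CXCL3, with −0.29 (SE 0.135). Of 22 interferon genes OAS1, which makes the activator of RNase L, was at 5.38, 5.22 and 5.58 in E2+CG and 4.93, 5.13 and 5.03 in CG (0.37, SE 0.104, adjusted p = 0.644), and the factor IRF1 differed by −0.22. ERBB2 differed by −0.03 and EGFR by 0.04, with 95% intervals of −0.28 to 0.21 and −0.12 to 0.20.

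Oxidative phosphorylation genes had 0 of 20 past the test and a median log2 difference of −0.06 (−0.02 after quantile normalization), with 17 below 0, beside 60.3% of the brighter genes. Their median in each array, relative to each gene's mean over the 6, was 0.05, −0.03 and −0.12 in E2+CG and 0.07, 0.02 and −0.01 in CG. Ribosomal protein genes had 0 of 18 past the test and a median of −0.08, with 0.02, 0.02 and −0.15 in E2+CG arrays and 0.09, 0.007 and 0.025 in CG arrays. For both lists E2+CG replicate 3 was the lowest array and the groups overlapped. Without it the medians were −0.01 and −0.03.

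Over all 35 lists, 556 distinct genes were measured and 0 passed. At an unadjusted p under 0.05 there were 23 (4.14%), with 8 higher and 15 lower, beside 6.28% of all genes. The share of all genes depends on level. Among the brighter genes 119 were higher and 297 lower, and among the dimmer ones 578 and 162. Whether the list genes differ from other genes of like level was not tested. The 95% interval stayed within 1.5-fold for 543 of the 556 list genes, beside 98.2% of all genes. Their median log2 difference was −0.03.

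**Figure D4:**
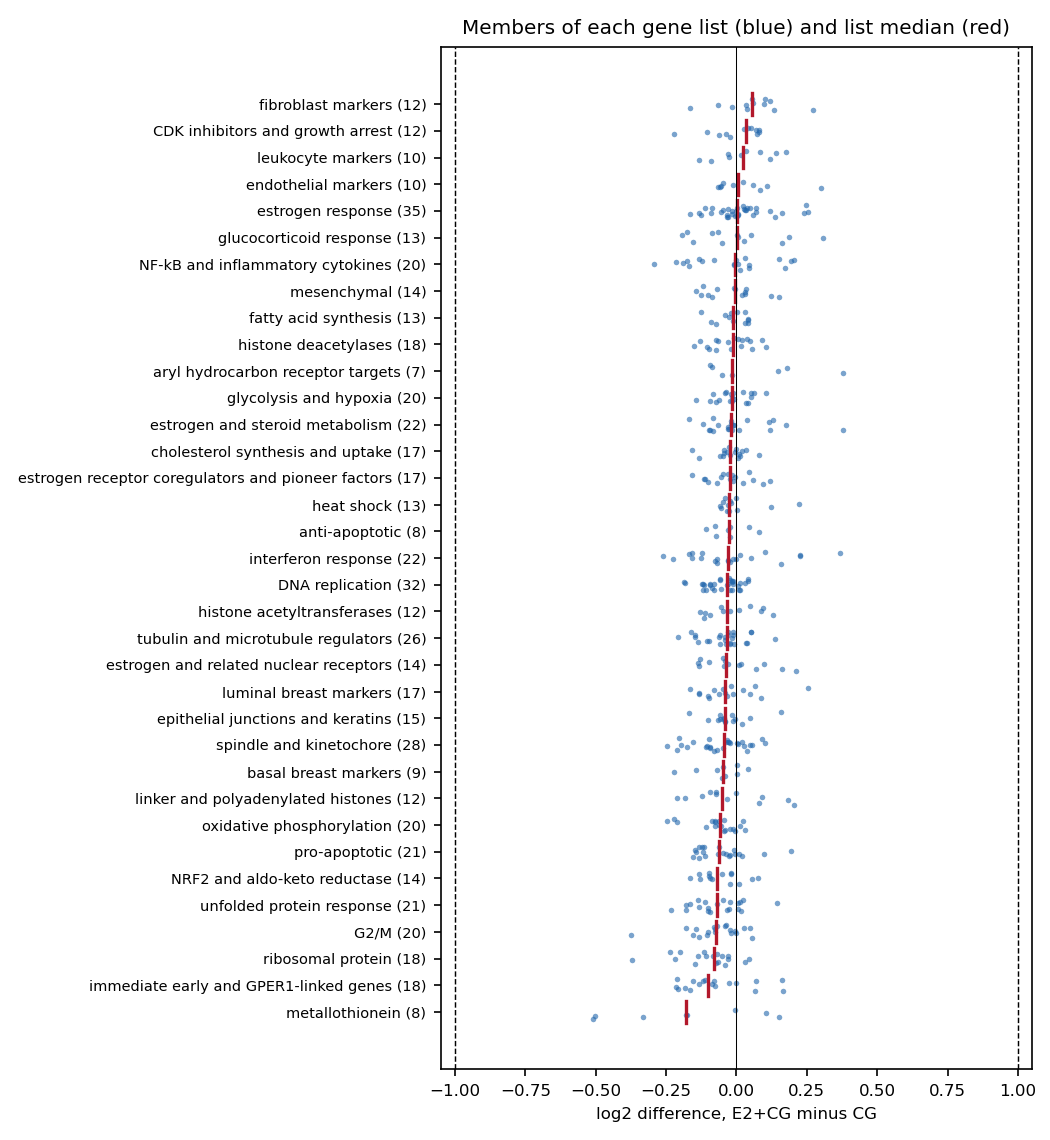
Log2 difference (E2+CG minus CG, horizontal axis) of each measured member (blue points) of 35 gene lists, with the number measured in parentheses and the list median in red. Lists are ordered by median and dashed lines mark 2-fold; medians run from −0.18 for metallothioneins to 0.06 for fibroblast markers, and no member lies beyond 2-fold.

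Whether estradiol gave another difference with CG-1521 than without it was tested by the interaction over the 12 SUM149PT arrays. No gene passed (0 of 18417, 0%), with a smallest adjusted p of 0.762 and 1046 genes at an unadjusted p under 0.05 (5.68%). The median standard error of the interaction was 0.136, so it could miss differences that the simple comparison would show. E2 against vehicle, which shares no array with E2+CG against CG, also gave 0 genes (0%), a smallest adjusted p of 0.863 and 845 genes at an unadjusted p under 0.05 (4.59%).

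The 6 genes of smallest interaction p, 3 each way, all had an adjusted p of 0.762. PRDX6-AS1 had 0.76, with a log2 difference of 0.63 with CG-1521 and −0.13 without it. KLF15, a glucocorticoid-responsive factor, was at 4.91, 4.97 and 4.87 in E2+CG and 4.56, 4.52 and 4.50 in CG, and had an interaction of 0.53 (SE in the simple difference 0.075). GALC, a lysosomal galactosidase, had 0.58, with arrays at 6.91, 6.95 and 6.82 in E2+CG and 6.71, 6.68 and 6.61 in CG, and at 6.94, 6.87 and 6.69 in E2 and 7.27, 7.18 and 7.11 in vehicle. MRPS18C had −0.60, the splicing factor gene HNRNPA1 −0.56 and the nucleotide hydrolase gene NUDT5 −0.53. HNRNPA1 has many processed copies, so its probe signal is uncertain.

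**Figure D5:**
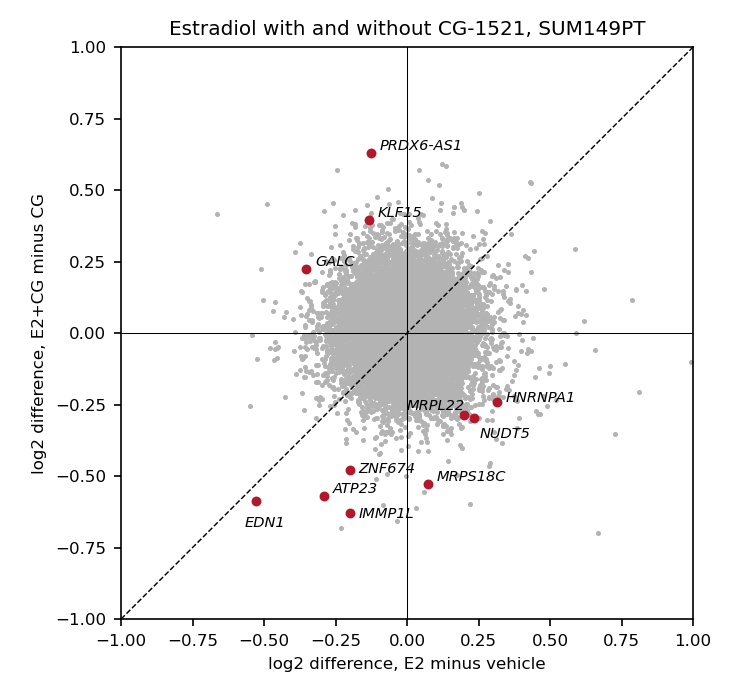
Log2 difference with CG-1521 on both sides (E2+CG minus CG, vertical axis) against that without CG-1521 (E2 minus vehicle, horizontal axis) for 18417 genes in grey, with named genes in red and equality as a dashed line. The cloud has no slope (r across genes of −0.03), and EDN1 is the named gene lying nearest the line at the lower left.

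Across genes the 2 estradiol differences in SUM149PT had a Pearson r of −0.03, and 49.5% of genes had the same sign, or 48.4% of the 1156 with an unadjusted p under 0.05. Genes are not independent replicates, and these values describe the arrays.

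The same addition of estradiol to CG-1521 in SUM190PT, at 5 µM CG-1521, shares no array with SUM149PT but differs from it in line, dose and medium together. It gave 0 genes past the test (0%), a smallest adjusted p of 0.735 and 889 at an unadjusted p under 0.05 (4.83%). Of these 889 genes 699 were higher in E2+CG, and after quantile normalization 464 of 765 were. The difference between the lines gave 0 genes (0%), a smallest adjusted p of 0.691 and 534 at an unadjusted p under 0.05 (2.9%), with a median standard error of 0.176. Across genes the 2 lines had an r of 0.21 and 57.7% same sign, or 0.31 and 65.1% over the 1156 genes. After quantile normalization within each line r was 0.17 and 0.25. All 24 arrays may have been normalized together, and whether the shared direction follows the signal level of the genes was not tested.

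KRTAP10-4 and TMEM105 were higher in E2+CG in both lines without passing in either. KRTAP10-4 in SUM190PT was at 7.34, 7.66 and 7.59 in E2+CG and 6.93, 6.69 and 6.91 in CG (0.69, SE 0.148, adjusted p = 0.783). TMEM105 was at 6.52, 6.24 and 6.50 in E2+CG and 5.98, 5.79 and 6.25 in CG (0.41, SE 0.148), with 1 array of each group crossing. RXFP3 differed by 0.37 there and NKX6-1 by 0.30, and GPER1 by 0.25, with 5.39, 5.44 and 5.53 in E2+CG and 5.14, 5.15 and 5.33 in CG. TMEM92, higher in E2+CG in SUM149PT, was lower in SUM190PT, at 6.43, 6.22 and 6.56 in E2+CG and 6.91, 6.60 and 6.70 in CG. Of the 24 genes that the rule took, 17 had the same sign in both lines. None of these passed in either line.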

How the data were processed

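Total RNA of 24 cultures was biotin labelled after a NuGEN amplification and hybridized to Affymetrix Human Gene 1.0 ST arrays, per the labels' protocols and the series title. The authors' deposited values are log2 expression from RMA in Affymetrix Expression Console, per the submitters' processing notes; versions are not stated, nor whether both lines were normalized together. Arrays carry no counts, so their number limits the precision.

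The table held 33297 probe sets. Of these 19460 had a single gene symbol in the platform annotation, 1754 several and 12083 none, and 19429 single-gene probe sets matched a RefSeq gene (0 symbols updated). For 769 genes with more than 1 probe set the brightest was kept, which gave 18417 genes with no intensity filter. The number of unused sample columns was 0. The 13837 probe sets left out gave 0 past the threshold, 717 at an unadjusted p under 0.05 (5.18%) and a smallest adjusted p of 0.137.

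Each contrast was fitted in limma 3.58.1, R 4.3.3 (lmFit, contrasts.fit, eBayes, two-sided) over the 12 arrays of a line, or all 24 for the difference between lines, with Benjamini-Hochberg adjustment over 18417 genes and a threshold of 0.05. Intervals are at 95%. The procedure was tested on simulated data. Python 3.11.15, pandas 2.3.3, numpy 2.4.6 and matplotlib 3.10.9 made the tables, promoter searches and plots. P-values rest on the spread between the 3 arrays within groups, pooled over all groups of the fit and moderated over genes by eBayes.

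The comparison and the 35 lists (648 entries, 588 measured) were chosen with earlier results of these data known. Named genes were the 12 largest rises and 12 largest falls past the threshold among non-overlapping genes. Open places were filled by smallest p at log2 6 or more, leaving out symbols of small RNAs, olfactory receptors, open reading frames and loci without a proper name. Also named were 3 interaction genes each way, 2 of smallest p per list, and ESR1, ESR2, GPER1, PGR, TFF1, GREB1, ERBB2, EGFR, CDKN1A, BIRC5, AGR2 and SPX. Other genes, such as EDN1, ATP23, ZNF674 and further list members, were added after their values were seen, and 1 gene that the rule took is not reported here.

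Alternatives were the replicate block, other sets of arrays in the fit, quantile normalization, median centring, the mean over all probe sets of a gene, removal of the dimmest 50% of genes, a trended robust prior, and each array left out in turn. Replicate numbers were not taken to pair arrays. Deviations from the group mean correlated at 0.144, 0.097 and 0.11 between same-numbered E2+CG and CG arrays. Between arrays of different numbers they correlated at −0.086 to −0.022. Not all 3 same-numbered values exceeded 0.1, so the block was used as an alternative only.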

Additional observations from a re-analysis of the deposited data

How the results depend on the processing

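The count of 0 genes past the threshold for E2+CG against CG held under all 14 alternatives, with a smallest adjusted p of 0.0781 to 1. Its 1156 genes at an unadjusted p under 0.05 became 510 with all 24 arrays in 1 fit and 547 without the dimmest 50% of genes, which tests fewer genes, and 941 to 1444 when single arrays were left out. Under each of these settings in turn the count became 438 and 584 for the interaction and 340 and 504 for E2 against vehicle. Without the dimmest 50% it became 473 for the averaged estradiol contrast, 193 for SUM190PT, 149 for the difference between lines, and 978 for genes whose arrays did not overlap. The cause of the lower count with 24 arrays was not tested.

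With the replicate block E2+CG against CG gave 0 genes, 1181 at an unadjusted p under 0.05 and a smallest adjusted p of 0.223; the interaction gave 1090, E2 against vehicle 876, the averaged contrast 1019, SUM190PT 1018 and the line difference 623. Every E2+CG array correlated best with the CG array of its own number, a hint from the data and not the design. In the averaged contrast the block made 1 gene pass, EDN1, at an adjusted p of 0.0159, and quantile normalization gave it 0.0645.

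Leaving out single arrays gave 0 to 1 genes past the threshold for the interaction (872 to 1278 unadjusted), 0 to 1 for E2 against vehicle (666 to 1014) and 0 to 2 for the averaged contrast (787 to 1146). Without vehicle replicate 1 the pseudogene MTND2P28 passed in all 3, with log2 values of −1.60, 1.50 and 0.70 and adjusted p of 0.000346, 1.75e-05 and 0.00186. Without E2 replicate 3 the small nucleolar RNA SNORA62 passed for the interaction at −1.78 (adjusted p = 0.0495). EDN1 passed in the averaged contrast without E2 replicate 2, together with IMMP1L at −0.47, and without E2+CG replicate 2. Over its alternatives the adjusted p of EDN1 there ran from 0.0159 to 0.327. This range does not cover the fit without the dimmest 50% of genes. That fit leaves EDN1 out, and its smallest adjusted p was 0.961.

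Gene values kept their sign in 1618 recomputations and turned in 15, none of a gene past the threshold. The values that turned stand beside the other end of the range over single arrays left out. ESR2 became 0.009 without CG replicate 1 or E2+CG replicate 3 (lowest −0.065), PGR 0.002 without E2+CG replicate 2 (lowest −0.080), and GREB1 −0.014 with quantile normalization and −0.022 without E2+CG replicate 3 (highest 0.061). ERBB2 became 0.094 without CG replicate 1 and 0.056 without E2+CG replicate 1 (lowest −0.129), CDKN1A −0.043 without CG replicate 2 (highest 0.111), and SPX 0.069 without CG replicate 3 and 0.080 without E2+CG replicate 1 (lowest −0.201). With the mean of probe sets BIRC5 became 0.011 and CFLAR 0.037. MT1H became 0.033, 0.021 and 0.032 without CG replicate 3, E2+CG replicate 1 or E2+CG replicate 3 (lowest −0.065). List medians moved by more than their spread in 18 recomputations and by less in 472.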
